A study of Mus musculus with 9 samples.

Results

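Of the 17641 windows in the deposited table of this chromatin immunoprecipitation sequencing (ChIP-seq) study, 482 (2.73%) carried signal in mouse alphaTC1 cells and almost none in mouse betaTC3 cells. The windows were chosen by their scaled reads in these same 6 libraries: a window was taken when each of the 4 alphaTC1 libraries reached at least 50 and both betaTC3 libraries stayed at 10 or below. Scaled reads are whole reads multiplied by 1 factor per library. These values chose the windows, so every difference between the cell lines below is a description and carries no test. The mirrored rule gave 1136 betaTC3-only windows, and 10781 windows stood at 50 or more in all 6 libraries.

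All 6 libraries are labelled as chromatin pulled down with an H3K9me3 antibody (trimethylated lysine 9 on histone 3). AlphaTC1 is a mouse pancreatic alpha cell line and betaTC3 a mouse pancreatic beta cell line. The alphaTC1 cells carried an empty vector (n = 2) or short hairpin RNA against Smndc1 (n = 2), each for 5 days, and the betaTC3 cells were untreated (n = 2), so the vector and the cell line differ together between the lines. Nothing in the labels says that the 2 libraries of a group came from separate cultures, and p-values then measure only the spread between these libraries. Reads in windows numbered 4530066 to 9924487 per library. Smndc1 encodes a splicing factor related to the SMN protein; its level cannot be read from these libraries.

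H3K9me3 is written by histone methyltransferases such as Setdb1 and Suv39h1, is bound by HP1 proteins, and is known for silent chromatin over repeats, zinc finger gene clusters and genes of other lineages. Islet alpha cells secrete glucagon and express Irx and POU-domain factors, while beta cells secrete insulin and depend on Pdx1 and Mafa. In the libraries labelled H3K9me3, 65.5% of all windows lay within 1 kb of the start of the gene that the authors assigned to them. Such a layout at gene starts is unusual for this mark. The labels were taken as given, and which mark the signal at any named gene stands for was not tested.

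Promoter sequences show the range of CpG content at gene starts that a window overlapped. The 300 bases run from 250 before to 50 after a RefSeq start (GRCm38.p6) and are written 5′ to 3′ on the strand of the gene, with every CpG, the pair of bases that can be methylated, in capitals. The first (Mark1, a kinase of microtubule-associated proteins, chr1:184999500-184999799, minus strand) had the most CpG of the 6 shown, 64, but its window took in only its last 18 bases. Kcnh7 (a voltage-gated potassium channel, chr2:63184238-63184537, minus strand) and Gad1 (the enzyme that makes GABA, chr2:70561879-70562178, plus strand) held 21 each, and 299 and 300 of their bases lay in a window. Npy1r (a neuropeptide Y receptor, chr8:66697172-66697471, plus strand) had 10, with 272 bases in a window, and Neurod4 (a proneural factor, chr10:130280089-130280388, minus strand) had 7, with 178 bases in a window. The start of Gm36252 (chr17:68187814-68188113, minus strand), a gene known here by its identifier alone, had none, and its window took in the first 80 bases.
Mark1: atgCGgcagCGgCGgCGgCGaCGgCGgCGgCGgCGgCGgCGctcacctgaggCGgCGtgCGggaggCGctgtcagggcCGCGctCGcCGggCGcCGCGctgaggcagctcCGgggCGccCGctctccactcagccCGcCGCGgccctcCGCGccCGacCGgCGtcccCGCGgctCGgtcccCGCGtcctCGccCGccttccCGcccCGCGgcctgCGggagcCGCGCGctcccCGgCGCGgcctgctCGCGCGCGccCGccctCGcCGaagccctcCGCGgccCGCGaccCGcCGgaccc
Kcnh7: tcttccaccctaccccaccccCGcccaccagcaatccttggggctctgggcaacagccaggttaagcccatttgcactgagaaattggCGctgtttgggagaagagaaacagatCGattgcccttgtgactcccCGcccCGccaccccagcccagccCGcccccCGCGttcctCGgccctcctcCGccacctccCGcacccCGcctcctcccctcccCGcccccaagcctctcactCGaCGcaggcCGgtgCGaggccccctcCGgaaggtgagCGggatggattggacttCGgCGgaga
Gad1: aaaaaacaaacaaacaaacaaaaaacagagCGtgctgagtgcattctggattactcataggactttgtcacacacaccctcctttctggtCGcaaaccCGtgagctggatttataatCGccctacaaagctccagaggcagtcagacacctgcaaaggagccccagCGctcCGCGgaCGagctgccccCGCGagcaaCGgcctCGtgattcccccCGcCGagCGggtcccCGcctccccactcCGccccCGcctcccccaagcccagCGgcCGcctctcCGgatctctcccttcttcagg
Npy1r: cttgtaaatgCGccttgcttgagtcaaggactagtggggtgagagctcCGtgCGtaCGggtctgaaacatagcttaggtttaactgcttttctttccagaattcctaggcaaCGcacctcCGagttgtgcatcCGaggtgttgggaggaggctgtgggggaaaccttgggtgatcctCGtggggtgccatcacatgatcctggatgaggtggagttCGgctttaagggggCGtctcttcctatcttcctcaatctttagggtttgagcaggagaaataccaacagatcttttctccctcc
Neurod4: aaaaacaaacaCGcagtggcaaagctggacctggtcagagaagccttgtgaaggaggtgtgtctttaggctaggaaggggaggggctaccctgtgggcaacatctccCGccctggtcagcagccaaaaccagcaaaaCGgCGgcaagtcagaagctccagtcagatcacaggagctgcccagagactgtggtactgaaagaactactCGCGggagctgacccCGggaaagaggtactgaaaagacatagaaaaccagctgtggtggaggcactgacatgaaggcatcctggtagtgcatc
Gm36252: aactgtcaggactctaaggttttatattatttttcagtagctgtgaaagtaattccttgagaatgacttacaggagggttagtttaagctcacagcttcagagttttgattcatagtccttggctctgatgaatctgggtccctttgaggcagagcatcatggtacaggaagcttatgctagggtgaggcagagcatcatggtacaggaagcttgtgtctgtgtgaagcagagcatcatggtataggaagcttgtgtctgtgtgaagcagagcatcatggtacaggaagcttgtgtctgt

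At Mark1 the window, 453 bp from the assigned start, held 793 and 721 scaled reads with the empty vector, 535 and 573 with the knockdown, and 0 and 0 in betaTC3. The window at Gm36252 held 514 and 604, 369 and 458, and 3.19 and 2.85 in the same order. Npy1r stood lower, at 242 and 252, 198 and 211, and 0 and 0.952. All 3 windows stood well above the limit of 50 in every alphaTC1 library, and those at Mark1 and Gm36252 lay mostly outside the printed bases.

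In betaTC3 the 482 windows were close to empty. There were 44 (9.13%) with no read in either betaTC3 library, and 183 of the 482 with at most 3 reads in each. The highest betaTC3 value was 9.58 scaled reads, and no betaTC3 library held more than 12 reads in a window. The fewest reads in an alphaTC1 library were 37. Over the 438 windows with some betaTC3 signal, the alphaTC1 mean was 48.0 times the betaTC3 mean at the median. A count of 0 still allows up to 3 reads, which is 2.4 and 2.85 scaled reads in the 2 betaTC3 libraries, and such limits cover counting error only.

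**Figure D1:**
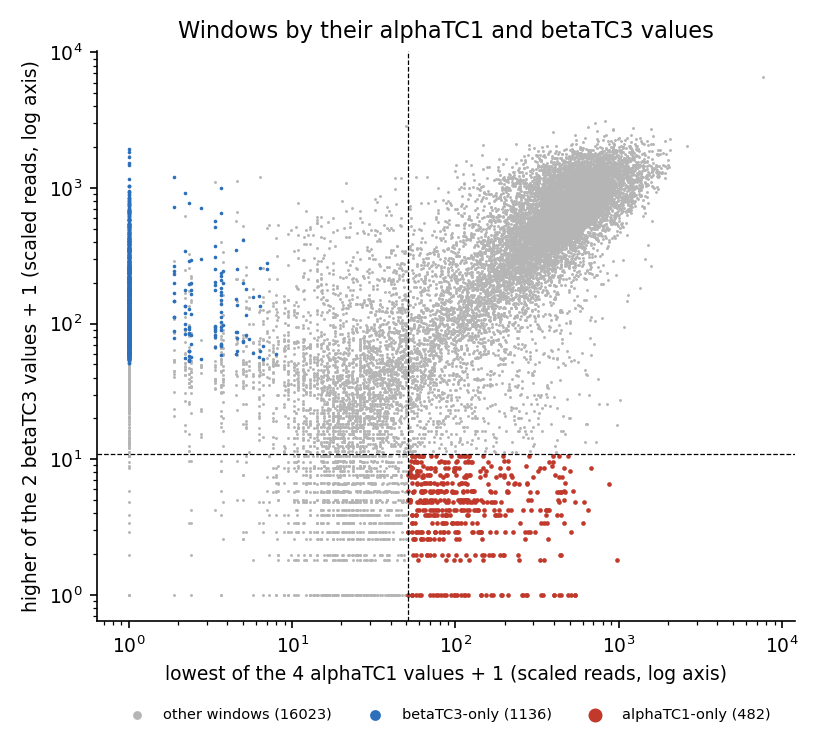
Each point is 1 window, with the lowest of its 4 alphaTC1 values on the horizontal axis and the higher of its 2 betaTC3 values on the vertical axis (scaled reads + 1, both log axes), and the dashed lines mark 50 and 10 scaled reads. The 482 alphaTC1-only windows fill the lower right corner without a gap to the windows around it, and the 1136 betaTC3-only windows lie at the upper left.

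No gap in the data marks either limit. There were 70 alphaTC1-only windows whose lowest alphaTC1 value was below 60, and 101 further windows at 40 to 50. On the betaTC3 side 46 windows had a higher value of 8 to 10, and 39 further windows stood at 10 to 12. Just inside the alphaTC1 limit lay the windows at AI197445, Hr and Arl14, each with a lowest value of 50.2. Windows assigned to Gm49660, Gm14264 and Gm43927, at 49.0, fell just outside it. Just inside the betaTC3 limit lay Prlr, Mir690 and Usp25 at 9.58, and just outside it Gm47624, Gm16045 and Pik3r1 at 10.4.

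Averaged over the 4 alphaTC1 libraries, the windows ran from 55.0 to 1150 scaled reads with a median of 121. The 11482 other windows that reached 50 in each alphaTC1 library had a median of 537. Only 53 of the 482 windows reached a mean of 400, and 175 stayed below 100. Their reads made up 1.24% to 1.39% of the scaled reads of an alphaTC1 library, and 0.0182% and 0.0230% of those of the betaTC3 libraries.

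Alpha cell genes were among the windows. Of 19 windows assigned to genes of an alpha cell list, 5 (26.3%) were alphaTC1-only, against 2.73% of all windows. The strongest of all 482 was at Irx1, an Iroquois homeobox factor of alpha cells, 939 bp inside the gene on chromosome 13, with 1152 and 1190 scaled reads under the empty vector, 970 and 1270 under the knockdown, and 0.799 and 0 in betaTC3. Gcg, which encodes glucagon, had a window 1929 bp past its start on chromosome 2 with 340 and 352, 352 and 421, and 0 and 0. The lowest alphaTC1 value at Gcg was thus over 300 while neither betaTC3 library held a read.

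At Pou3f4, an X-linked POU factor, the window 347 bp past the start held 353 and 341, 284 and 366, and 1.6 and 1.90. Slc38a5, a glutamine transporter that marks proliferating alpha cells, had 232 and 250, 148 and 225, and 0.799 and 2.85. At Irx1 and Pou3f4 the empty-vector and knockdown values overlapped. At Slc38a5 both knockdown libraries lay below both empty-vector libraries, and at Gcg both lay above them, by less than 1 scaled read at the closest.

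Other alpha cell genes did not follow the rule. Irx2, a neighbour of Irx1 in the same gene cluster, stood at 546 to 759 in alphaTC1 and at 311 and 246 in betaTC3. Ttr (transthyretin) and Gc (vitamin D binding protein), which are abundant in alpha cells, went the other way: Ttr had 0 to 2.80 scaled reads in alphaTC1 and 130 and 123 in betaTC3, and Gc had 0 in all 4 alphaTC1 libraries and 35.9 and 44.7 in betaTC3. The alpha cell list therefore held both kinds of window, with 5 alphaTC1-only and 3 betaTC3-only.

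**Figure D2:**
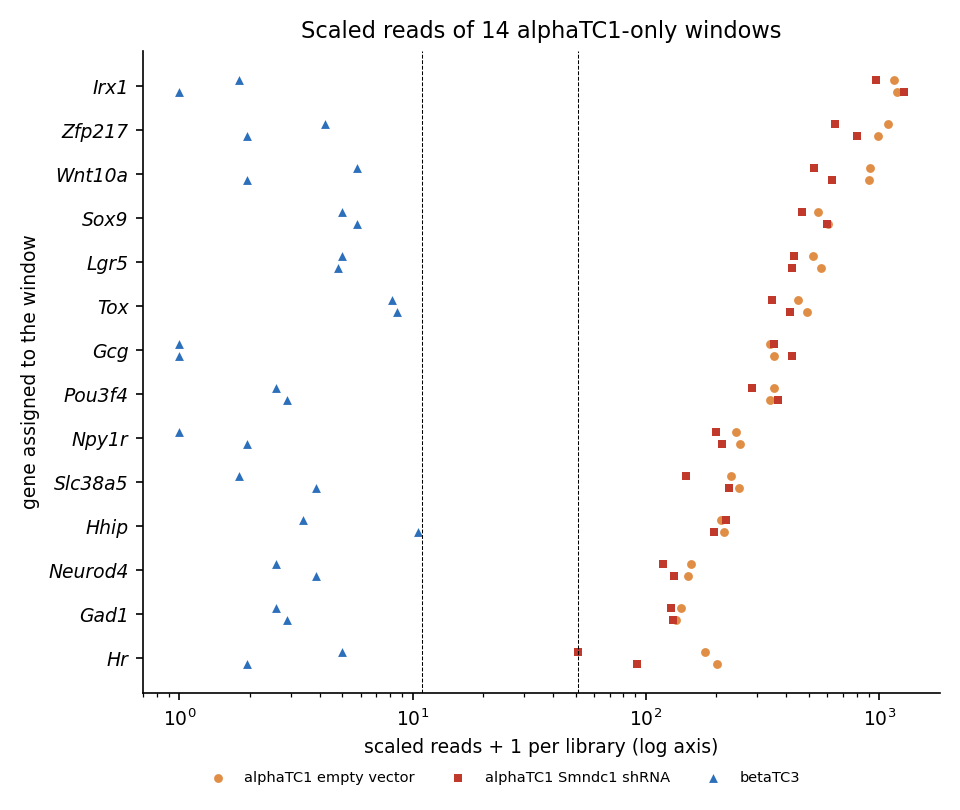
Scaled reads + 1 (horizontal log axis) in each of the 6 libraries for the window with the highest alphaTC1 mean of 14 genes (vertical axis), with circles for the empty vector, squares for the Smndc1 shRNA and triangles for betaTC3, and dashed lines at the 2 limits of the rule. The alphaTC1 points of Irx1 lie at 970 to 1270 scaled reads and its betaTC3 points below 1, and at Hr both knockdown squares lie left of the empty-vector circles.

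Beta cell genes gave the opposite count. Of 21 windows assigned to beta cell genes, 1 was alphaTC1-only and 12 were betaTC3-only, against 482 and 1136 of all 17641 windows. The 1 was assigned to Prlr, the prolactin receptor, at 46445 bp from the assigned start, with 230 and 276, 147 and 176, and 9.58 and 6.66. A RefSeq start of Prlr lay within 1 kb of it. At Pdx1, the window 361 bp past the start held 0 to 5.30 scaled reads in alphaTC1 and 1829 and 1840 in betaTC3, and at Ins1, an insulin gene, the values were 0 to 1.32 and 354 and 314. No window of the delta, PP and epsilon cell list (5 windows) was alphaTC1-only.

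Genes of acinar and duct cells, the exocrine cells of the pancreas, were also present: 5 of their 10 windows were alphaTC1-only. Sox9, a duct and progenitor factor, had its window 73 bp past the start with 545 and 601, 465 and 598, and 3.99 and 4.76. The others were lower, with means over alphaTC1 of 96.5 at Onecut1 (a progenitor factor) and 68.8 at Gata4 (an endoderm factor). Windows of Nr5a2, an acinar regulator, and Cela1, an elastase, lay 11760 bp and 1014 bp past the starts. Cela1 held 119 and 124 under the empty vector, 83.6 and 55.9 under the knockdown, and 8.78 and 4.76 in betaTC3.

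Transcription factor families contributed more windows. Homeobox genes had 8 of 108 windows (7.41%) in the set, Sox, Fox, Tbx, Gata and Klf factors 6 of 63 (9.52%), basic helix-loop-helix factors 4 of 46 (8.70%) and zinc finger genes 11 of 386 (2.85%). The share over all windows was 2.73%, and no test over a list was made. The betaTC3-only windows of the same 4 lists numbered 19, 5, 4 and 9, against 1136 of all 17641 windows. Within 1 kb of a start were, among others, the proneural factors Neurod6 (alphaTC1 mean 350) and Neurod4 (139), and Ebf1 (201), a factor of B cells and neurons. Tbx15, a T-box factor of the skeleton and fat, had 387 and 396, 275 and 348, and 0 and 0.

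Foxa2, an endoderm factor that both islet cell types need, showed a split within 1 locus. The window 1690 bp past its start stood at 578 to 853 in alphaTC1 and at 1144 and 1199 in betaTC3. A window 7242 bp past the start was alphaTC1-only with 475 and 573, 454 and 444, and 0.799 and 2.85. It also lay within 1 kb of a RefSeq start of another gene, 9030622O22Rik. Another at 16398 bp held 121 to 164 in alphaTC1 and 3.19 and 2.85 in betaTC3. A window at -1638 bp went the other way, with 0 to 1.32 in alphaTC1 and 40.7 and 47.6 in betaTC3. Isl1, a factor of all islet endocrine cells, had signal in both lines near its start: the window 281 bp before the start held 653 to 850 in alphaTC1 and 1353 and 1230 in betaTC3. Its alphaTC1-only window lay 15819 bp past the start at 96.6 and 87.9, 123 and 129, and 3.99 and 5.71.

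Ion channels and receptors followed. Over all 17641 windows, 482 (2.73%) were alphaTC1-only and 1136 betaTC3-only. The list counts here and below stand beside these totals, and no test over a list was made. Calcium and sodium channel genes had 5 of 44 windows in the set, led by Cacna1i, a T-type calcium channel (559 and 527, 375 and 465, 3.19 and 1.90) and Cacna2d3, a calcium channel subunit (410 and 385, 270 and 309, 0 and 0). Potassium channel genes had 3 of 62, at Kcnh7, Kcnj9 and Kcnk2, with means of 205, 179 and 160, and 15 of the 62 were betaTC3-only. Receptors coupled to G proteins had 4 of 91, at Lgr5, Npy1r, Mc4r and Adgra1, and 22 of the same 91 were betaTC3-only. Lgr5, the receptor for R-spondins on intestinal stem cells, was the strongest with 522 and 560, 429 and 421, and 3.99 and 3.81.

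Signalling ligands included Wnt10a, a Wnt ligand, at 494 bp with 908 and 900, 526 and 626, and 4.79 and 0.952. Bmp7, a bone morphogenetic protein, had 535 and 546, 391 and 442, and 7.99 and 3.81. Hhip, which binds Hedgehog ligands at the cell surface, had 208 and 216, 219 and 194, and 2.4 and 9.52. Wnt pathway genes had 5 of 58 windows in the set, and TGF-beta, BMP, FGF, Hedgehog and Notch genes 4 of 78. Axon guidance genes had 7 of 74, with Ntn4, Sema3e and Sema6d within 1 kb. Extracellular matrix and integrin genes had 7 of 96, and these 7 lay within 1 kb, with Adamts20 (368) and Adam19 (316) highest by alphaTC1 mean. The betaTC3-only windows numbered 4 for Wnt genes, 10 for the TGF-beta to Notch list, 9 for axon guidance and 11 for matrix genes.

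Adhesion and cytoskeleton genes gave further strong windows. Cadherin and protocadherin genes had 5 of 55 windows in the set, all 5 within 1 kb of a start, and 12 of the 55 were betaTC3-only. Cdh13, a cadherin without a transmembrane domain, was the strongest of them with 487 and 506, 362 and 423, and 2.4 and 0. Actin, myosin and formin genes had 4 of 79, led by Fmnl2, a formin that builds actin filaments, with 688 and 716, 442 and 572, and 0.799 and 0.952. Synaptic and neuronal adhesion genes had 2 of 62, at Nell2, a secreted neuronal protein (alphaTC1 mean 367), and Lrfn2. Neurotransmitter receptor genes had 3 of 46, with the glutamate receptor genes Grik3 (140) and Grin2a (86.5) within 1 kb of a start, and 12 betaTC3-only. At Cdh13 and Fmnl2 both knockdown libraries lay below both empty-vector libraries.

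Solute carriers had 10 of 242 windows in the set and 26 betaTC3-only, with Slc25a13, the mitochondrial aspartate and glutamate carrier, at 740 and 827, 613 and 668, and 0.799 and 3.81. Slc25a13 lies on chromosome 6 in a region with 2 imprinted genes whose windows were also alphaTC1-only. These were Sgce, a sarcoglycan expressed from the paternal copy (218 and 255, 153 and 189, 7.19 and 2.85), and Ppp1r9a, an actin-binding scaffold (600 and 600, 438 and 530, 0.799 and 0.952). Windows of Casd1 and Bet1 in the same region were at 50 or more in all 6 libraries, as was Dync1i1. At Casd1 betaTC3 held 812 and 420, at Bet1 428 and 417, and at Dync1i1 212 and 175. Asb4, a neighbour in this region, had a betaTC3-only window 6898 bp past its start, with 0 to 8.88 in alphaTC1 and 104.6 and 109 in betaTC3. Its window 471 bp past the start was marked in both lines, with 79.9 to 102 in alphaTC1 and 59.1 and 78.0 in betaTC3. Of 38 windows that the authors assigned to genes of the imprinted list, 2 were alphaTC1-only and 4 betaTC3-only. Windows inside an imprinted gene but assigned to another gene, such as the one in Zdbf2 below, are not in this count.

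Of the 31 gene lists, 6 had no alphaTC1-only window: tyrosine kinase receptors and phosphatases (54 windows), ribosomal proteins (72), cytochrome P450 (22), Mage and Xlr genes (17), serpins and kallikreins (8), and the delta, PP and epsilon cell list. Synapse scaffold and vesicle genes had 1 of 115, and immune genes 1 of 152. The H3K9 methylation and silencing list had 1 of 33, at Mecom (alphaTC1 mean 67.6), and 28 of its windows stood at 50 or more in all 6 libraries. Lists overlap, as Irx1, Pou3f4, Onecut1 and Sox9 each sit in more than 1.

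The 10 windows with the highest alphaTC1 mean included 3 with no protein-coding gene assigned. Tmem100, a membrane protein of endothelium and sensory neurons, came second after Irx1 with 1059 and 1239, 871 and 1048, and 5.59 and 2.85. D16Ertd472e had 879 and 890, 539 and 717, and 0 and 0. Rorb, an orphan nuclear receptor of retina and cortex, had 798 and 804, 671 and 730, and 5.59 and 7.61. The noncoding entries were Gm43573, CT030740.1 and 4930412F12Rik, with means of 818, 712 and 740. The CT030740.1 window also overlapped the RefSeq promoters of Cdc42ep3, by 14 bases, and of Gm17315, by 94 bases.

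The windows lay farther from gene starts than most others. Within 1 kb of the assigned start were 196 (40.7%, exact 95% interval 36.2% to 45.2%), from 1 to 10 kb 115 (23.9%), and beyond 10 kb 171 (35.5%). Among windows at 50 or more in all 6 libraries the share within 1 kb was 85.6%, and among betaTC3-only windows 49.5%. The median distance was 3140 bp, against 386 bp and 1030 bp in those sets. Strong windows sat nearer to starts in both sets, so the shares were also set side by side at equal alphaTC1 level.

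At a mean of 50 to 100 scaled reads, 26.9% of the alphaTC1-only windows and 49.3% of those shared by all 6 libraries were within 1 kb. At 100 to 200 the shares were 39.4% and 59.5%, at 200 to 400 they were 55.7% and 79.7%, and at 400 and over 67.9% and 92.4%. At each of the 4 levels the exact 95% intervals of the 2 sets did not overlap; they cover counting error only, since windows are not replicates.

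**Figure D3:**
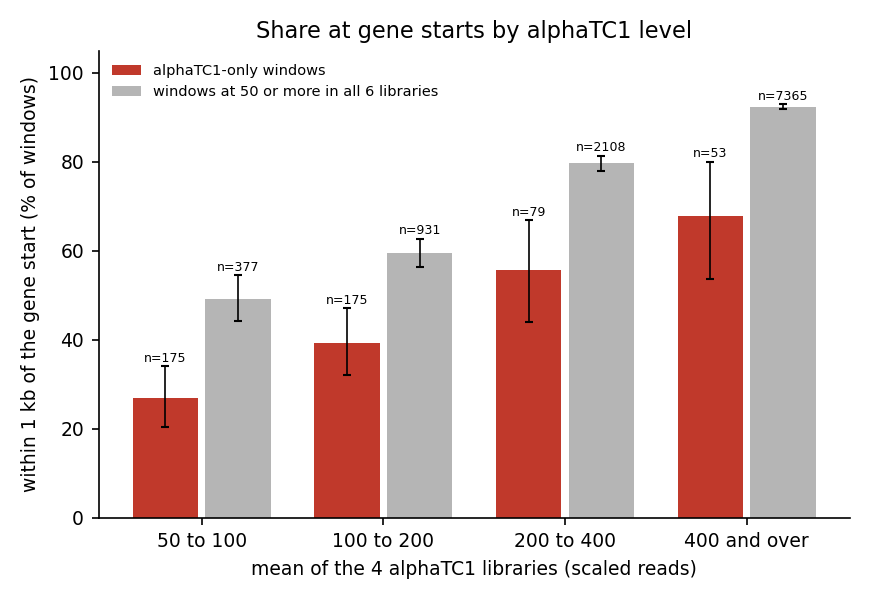
Bars give the percentage of windows within 1 kb of the assigned gene start (vertical axis) by the mean of the 4 alphaTC1 libraries in scaled reads (horizontal axis), red for the alphaTC1-only windows and grey for windows at 50 or more in all 6 libraries, with exact 95% binomial intervals and the number of windows. The red bars rise from 26.9% to 67.9% and lie below the grey bar at each level.

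Protein-coding genes were assigned to 275 (57.1%) of the windows, against 85.7% of the windows shared by all 6 libraries and 61.3% of the betaTC3-only windows. Long noncoding RNA genes had 103 (21.4%), pseudogenes 42 (8.71%), and small RNA genes and the TEC class (transcripts to be experimentally checked) 31 (6.43%) each. In the shared set these were 8.04%, 2.16%, 2.50% and 1.64%. Distance went with biotype. Of the windows at protein-coding genes 148 (53.8%) were within 1 kb, of those at long noncoding RNA genes 37.9%, of those at pseudogenes 14.3%, and of those at small RNA genes 3.23%. An assignment to a small RNA or a pseudogene is thus mostly an assignment across many kilobases, with medians of 15400 bp and 23700 bp.

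Starts in the RefSeq table placed some of these windows at other genes. Of the 286 windows over 1 kb from the assigned start, 65 lay within 1 kb of a RefSeq start, which brings the windows at either kind of start to 261. The strongest of them was assigned to Zfp217, a zinc finger factor, 12179 bp past the authors' start, and held 1092 and 985, 645 and 801, and 3.19 and 0.952. A window assigned to the microRNA gene Mir690 across 153878 bp lay at a start of Fgf12, an intracellular relative of fibroblast growth factors, with 635 and 633, 428 and 559, and 9.58 and 6.66. Another start of Fgf12 held 560 and 547, 327 and 451, and 336 and 215, so the 2 starts of this gene differed in betaTC3 while both had signal in alphaTC1.

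Such a layout, with a start of the same gene at 50 or more in all 6 libraries elsewhere, was found at 11 genes and 10 windows. Dctn1, a dynactin subunit, held 303 and 331, 201 and 259, and 0.799 and 2.85 at the alphaTC1-only start, and 1207 and 1207, 758 and 1002, and 1103 and 900.3 at another. Nfyc, a subunit of the factor that binds CCAAT boxes, held 242 and 257, 186 and 224, and 2.4 and 2.85 at one start, and 853 and 842, 541 and 818, and 962 and 791 at the other. At Scn2a, a neuronal sodium channel, both start windows were alphaTC1-only.

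The other 221 windows were at neither kind of start. Of these, 58 lay inside 54 protein-coding genes that had a start window at 50 or more in all 6 libraries, at a median of 39.2 kb from that start window. Cdk5rap1, which modifies tRNA, is an example: its inner window held 282 and 308, 223 and 242, and 0 and 1.90, and its start window 1178 and 1407, 804 and 1079, and 831 and 828. A further 6 lay inside a gene whose start window was itself alphaTC1-only, 11 inside a gene with another start window, 39 inside a gene with no start window in the table, and 107 (22.2% of the 482) outside protein-coding genes.

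Some genes held windows of both kinds. Of 363 RefSeq protein-coding genes that hold an alphaTC1-only window when 1 kb is added at both ends, 24 also held a betaTC3-only window. Of these, 10 are overlapping entries of the protocadherin cluster on chromosome 18 that have windows in common, and 14 lie on other chromosomes. Camk2b, a calcium and calmodulin kinase, had its betaTC3-only window 718 bp past the start with 0 in all 4 alphaTC1 libraries and 380 and 320 in betaTC3. The alphaTC1-only window of the table lay 58.2 kb away, assigned to Ykt6, with 360 and 413, 331 and 451, and 0 and 0, but both betaTC3 peak lists held a peak over it, so at this gene the lists go against the table.

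At Zdbf2, an imprinted gene, an alphaTC1-only window with 179 and 202, 193 and 175, and 1.6 and 4.76 lay 16.1 kb from a window with 0 in all 4 alphaTC1 libraries and 883 and 409 in betaTC3. Arhgef15, a guanine nucleotide exchange factor of vessels and neurons, held 291 and 277, 256 and 264, and 0 and 0 in one window. In the other, 7.45 kb away, it held 0 to 5.30 in alphaTC1 and 159 and 164 in betaTC3. Shisa5, Kcnip4, Phactr1, Nrp2 and Gramd1b were among the rest, and 1 gene can hold windows of opposite kind at 7.37 to 305 kb from each other.

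Windows rarely came in clusters. In the order of the table, 385 stood alone, 41 pairs were next to each other, and 5 runs held 3. The runs were at Lonrf2 and Chst10, at Sox9 and the noncoding gene 2610035D17Rik, at Gng2 and Saysd1, within 1700007L15Rik, and at AY702102 and Zfp217. The Sox9 run spanned 350.4 kb and the run of 1700007L15Rik 19.4 kb. Of the 964 neighbouring positions in the table, 102 (10.6%) were alphaTC1-only too, against 2.73% of all windows, and 446 (46.3%) were at 50 or more in all 6 libraries. The median gap to a neighbour was 85.1 kb, and the neighbours' betaTC3 mean had a median of 86.3 scaled reads.

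Zfp217 had 4 alphaTC1-only windows and 1700007L15Rik 3, the 2 genes with over 2 windows. The Zfp217 windows lay at 24307, 12179, -12185 and -50316 bp from the authors' start, and apart from the one at 12179 bp they held 76.4 to 172 scaled reads per alphaTC1 library. By chromosome, 2 and 11 had 52 windows each, or 3.83 and 3.75 per 100 windows of the table. Chromosome 6 had 4.05 per 100, chromosome 12 had 1.65, and no window lay on the Y chromosome, which had 12 windows in the table.

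The deposited peak lists, 1 for each of the 6 libraries with its group's input as the control, come from the same libraries that chose the windows. Overlap with them is a description, not separate support, and is given without the share over all windows. All 482 windows overlapped a peak in each of the 4 alphaTC1 lists. The authors' fold over background had a median of 13.7 to 17.3 in these peaks, against 24.0 to 33.5 over all peaks of the same lists. In betaTC3, 9 and 10 of the windows overlapped a peak, 10 windows in all, and 472 had none in either list.

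For these 10 windows the name alphaTC1-only goes against the peak lists. The window assigned to Ykt6 (inside Camk2b) had 0 scaled reads in both betaTC3 libraries but betaTC3 peaks with a fold of 22.9 and 6.66, and the window at -3837 bp from Vmn1r86, a pheromone receptor, had 0 and 0 with folds of 22.7 and 19.2. Of the 10, 6 were assigned to pseudogenes, and chromosomes 11 and 12 held 4 each. Gm48667, a processed pseudogene, was the strongest in alphaTC1 with 465 and 483, 276 and 389, and 0.799 and 1.90, and betaTC3 folds of 10.95 and 9.14. Without these 10 windows the share within 1 kb was 40.5%.

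Promoter composition was read where a window overlapped the 300 bases of a RefSeq promoter, which 90 windows did, over 103 promoters. Their median ratio of observed to expected CpG was 0.653, below the 0.811 of promoters under windows shared by all 6 libraries and above the 0.384 of all 32851 promoters of the table. The ratio exceeded 0.6 in 57.3%, 84.1% and 35.8% of the 3 sets. Promoters under betaTC3-only windows were near those of the alphaTC1-only windows in some measures, with a median ratio of 0.694, 63.4% above 0.6 and TATAAA in 7.59%. Median GC content was 60.7%, 63.0% and 52.7% in the 3 sets. The letters GGGCGG, a GC box, were found on either strand in 53.4%, 70.8% and 35.7% of the 3 sets. Under betaTC3-only windows median GC content was 64.7% and GGGCGG was found in 69.7%, both nearer to the shared windows. The TATA box TATAAA was rarer under alphaTC1-only windows than over the whole promoter table, at 7.77%, against 4.36% under shared windows and 13.6% over the table. An E box (CACGTG) was found in 8 of 103, 508 of 5067 and 2349 of 32851. The forkhead motif TGTTTAC was found in 2.91%, 2.19% and 3.65%. The cyclic AMP response element, TGACGTCA, was found in 4.85%, 3.81% and 1.79%. A match describes letters only, and the 103 promoters are few and in part overlap each other.

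**Figure D4:**
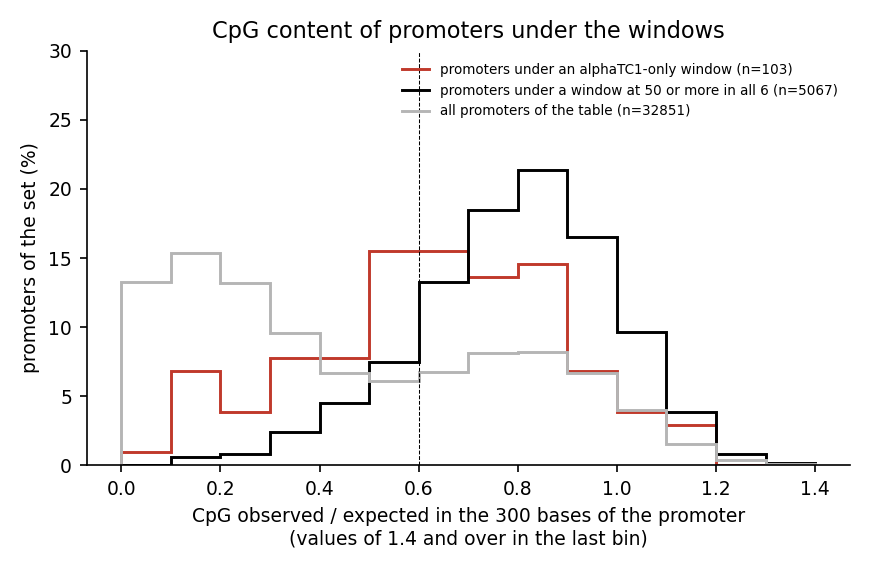
Percentage of promoters (vertical axis) by the ratio of observed to expected CpG in their 300 bases (horizontal axis), for 103 promoters under an alphaTC1-only window (red), 5067 under a window at 50 or more in all 6 libraries (black) and all 32851 promoters of the table (grey), with a dashed line at 0.6. The red line lies between the other 2: 57.3% of its promoters exceed 0.6, against 84.1% and 35.8%.

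The knockdown of Smndc1 was compared with the empty vector within alphaTC1, which the choice of windows used only through the minimum of 50. No window of the table was called at an adjusted p below 0.05 by limma (percent called: 0 of 17641), and so none of the 482. edgeR on the whole reads also called 0, and DESeq2 called 10 (0.0567%), none of them among the 482. At an unadjusted p below 0.05, limma found 45 of the 482 (9.34%) lower and 0 higher, against 32.7% and 2.23% of all windows. In a fit of the 4 alphaTC1 libraries alone it found 118 (24.5%) lower and 1 higher (0.207%), against 26.1% and 2.02%. How far the share of the 482 lay below that of all windows thus depended on whether betaTC3, near 0 in these windows by the rule, entered the fit.

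Most windows read lower in the knockdown, as the table as a whole did. Both knockdown libraries were below both empty-vector libraries in 282 of the 482 (58.5%) and above them in 27 (5.6%), against 64.6% and 6.85% of all windows. The log2 change was below 0 in 399 (82.8%), against 81.2% of all windows. Among all windows at 50 or more in each alphaTC1 library, both knockdown libraries were below both empty-vector libraries in 83.8% and above them in 1.95%. The 58.5% of the 482 was lower than this share, but the 2 sets differ in level. The median alphaTC1 mean was 121 over the 482 and 537 over the other windows that meet the same minimum. The median log2 change of knockdown minus empty vector was -0.28 over the 482 and -0.37 over all windows. By level, the medians of alphaTC1-only and shared windows were -0.14 and -0.11 at 50 to 100 scaled reads, -0.31 and -0.25 at 100 to 200, -0.34 and -0.38 at 200 to 400, and -0.38 and -0.44 at 400 and over.

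Once each library was centred on its median, the median change of the 482 was 0.10, and 89 (18.5%) had both knockdown libraries lower and 189 (39.2%) both higher, against 25.5% and 28.8% of all windows. By level, the centred medians of alphaTC1-only and shared windows were 0.232 and 0.260 at 50 to 100 scaled reads. They were 0.0688 and 0.122 at 100 to 200, 0.0327 and -0.0065 at 200 to 400, and -0.0047 and -0.0645 at 400 and over. The direction of the median of the 482 therefore depended on the scaling, and neither direction is a call. edgeR, which scales by TMM, found 41 (8.51%) higher and 18 (3.73%) lower at an unadjusted p below 0.05, against 7.58% and 4.86% of all windows. DESeq2 found 12 (2.49%) higher and 9 (1.87%) lower, against 3.54% and 2.57%, and limma on the centred libraries 10 (2.07%) higher and 4 (0.83%) lower, against 7.57% and 5.56%. Without knockdown replicate 2, limma called 7 of the 482 lower (1.45%) and 0 higher at an adjusted p below 0.05, against 34.2% and 1.38% of all windows.

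The lowest changes were at Hr, Gm14616, Gm45671, Gm50225 and Gm12663. Hr, a corepressor of nuclear receptors needed for hair growth, held 177 and 201 scaled reads with the empty vector, 50.2 and 90.8 with the knockdown, and 3.99 and 0.952 in betaTC3, at -1222 bp from the start. Its log2 change was -1.47 (SE 0.50, limma adjusted p = 0.122). SE and adjusted p, here and below, pool the spread of all 3 groups. They thus take in the spread of the near-0 betaTC3 values and are not the spread within alphaTC1 alone. Gm14616, a long noncoding RNA gene 57139 bp from the window, held 150 and 135, 53.7 and 65.7, and 3.19 and 4.76. Its log2 change was -1.24 (SE 0.27, limma adjusted p = 0.117). The knockdown libraries lay below the empty-vector libraries in all 5 of these windows, which follows largely from picking them by their change. None passed the adjusted threshold.

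The highest changes were at Tox, Gli2, Isl1, Gm45124 and Slc2a3. Tox, a factor of T cell development, held 54.3 and 80.8, 86.0 and 117, and 3.99 and 4.76 in a window 4023 bp past the start, with a log2 change of 0.59 (SE 0.30, limma adjusted p = 0.193). Gli2, a transcription factor of the Hedgehog pathway, held 56.9 and 57.7, 92.0 and 69.9, and 3.99 and 5.71, with a log2 change of 0.48 (SE 0.28, limma adjusted p = 0.236). The window past Isl1 described above changed by 0.44 (SE 0.25, limma adjusted p = 0.219). Slc2a3, a neuronal glucose transporter, changed by 0.34 (SE 0.25, limma adjusted p = 0.325). Both knockdown libraries lay above both empty-vector libraries in these 4 windows and in that of Gm45124. This too follows largely from picking the windows by their change, and none was called.

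At these alpha cell genes the log2 changes were -0.08 at Irx1 (SE 0.30, limma adjusted p = 0.877), 0.15 at Gcg (SE 0.21, limma adjusted p = 0.602), -0.11 at Pou3f4 (SE 0.22) and -0.40 at Slc38a5 (SE 0.40). None of these changes passed the test, and their size depended on the scaling and the library left out. Over 13 alternative settings Irx1 ran from -0.27 to 0.30 and Pou3f4 from -0.29 to 0.27, each with the other sign in 4 settings. Gcg ran from 0.03 to 0.53 and Slc38a5 from -0.70 to -0.01. Each SE in this paragraph also takes in the spread of the near-0 betaTC3 values. Bcas1os2, an antisense RNA gene with a window at -19245 bp on chromosome 2, changed by -1.02 (SE 0.61, limma adjusted p = 0.243), with 686 and 834, 358 and 389, and 3.19 and 0. It lies near the Zfp217 windows, of which the one at 24307 bp changed by -0.72 (SE 0.25, limma adjusted p = 0.124) and the one at -12185 bp by 0.05 (SE 0.25).

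**Figure D5:**
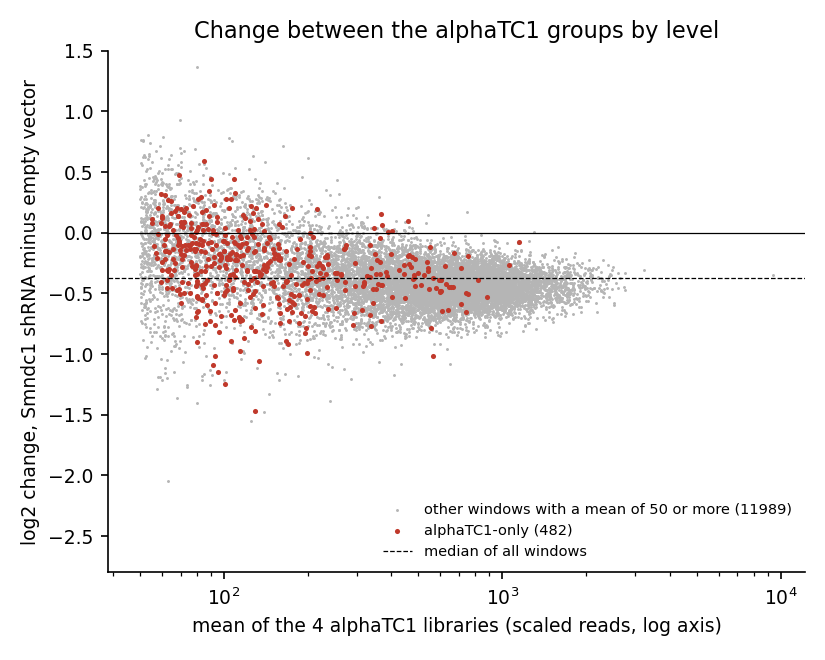
Each point is 1 window, with the mean of the 4 alphaTC1 libraries in scaled reads on the horizontal log axis and the log2 change of Smndc1 shRNA minus empty vector on the vertical axis, red for the 482 alphaTC1-only windows and grey for the others with a mean of 50 or more, and a dashed line at the median of all windows, -0.37. The red points have a median of -0.28 and reach from -1.47 at Hr to 0.59 at Tox.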

How the data were processed

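For each of 17641 windows, the authors' deposited table gives a signal value in each ChIP library; most windows are 401 bp wide and carry an assigned gene and the distance to its start. All values were whole multiples of 1 step per library within 0.001, so they were taken as reads times a factor and called scaled reads; the origin of the factors, and any input subtraction, are not given in the sources used here. MACS2 2.2.7.1, Bowtie2 2.4.1, Picard 2.19.2 and mm10 are listed in the submitters' processing notes, without settings. The deposited peak lists give the authors' ratio (fold) and −log10 q-value per peak. The 3 input samples entered only through those lists.

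Smndc1 knockdown was compared with empty vector by limma 3.58.1 with a trend on log2(scaled reads + 1) over all 6 libraries. Benjamini-Hochberg adjustment was over all windows. Simulated data gave back 200 of 200 windows changed by a fold of 4, with 11 unchanged windows called. In the simulation betaTC3 had the same mean as the empty vector in each window. It thus held no window with alphaTC1 signal and near-empty betaTC3, and does not show the power for the alphaTC1-only windows. edgeR 4.0.16 and DESeq2 1.42.0 on whole reads (100% of values came out whole), another pseudocount, centring, a filter, a replicate block and each library left out were alternatives. Deviations of same-numbered libraries from their group means correlated between groups at -0.0079 (empty vector and knockdown), 0.085 (empty vector and betaTC3) and -0.176 (knockdown and betaTC3). Numbers were therefore not used as pairs. Overlap with a peak was at least 1 bp. Gene starts and promoters came from RefSeq GRCm38.p6, with no promoters on chromosome 18 used here. R 4.3.3, Python 3.11.15, pandas 2.3.3 and matplotlib 3.10.9 were used.

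The windows, gene lists and tests were chosen with earlier results of these data known. Named windows were, per list, up to 4 with the highest alphaTC1 mean within 1 kb of a start, the 10 highest means, the 5 highest and lowest changes, the 5 highest beyond 10 kb or without a protein-coding gene, runs of 3, genes with 3 or more windows, and 3 on each side of each limit. Marker genes and windows at other starts, inside genes, of both kinds in 1 gene or under betaTC3 peaks were added after their values were seen, as were the promoters of Mark1, Gad1 and Gm36252, picked to show a range of CpG. Some windows and 1 gene list are not reported here.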

Additional observations from a re-analysis of the deposited data

How the results depend on the processing

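The limits of the rule set the number of windows. It was 1074 with at least 20 and 239 with at least 100 in alphaTC1, with 29.2% and 52.3% within 1 kb of a start, 47.1% were within 2 kb, and the number was 484 to 540 when 1 library was left out of the rule. Among peaks at or above their list's median −log10 q-value, 16.2%, 15.6%, 17.2% and 16.0% of the windows were covered in the alphaTC1 lists and 0% and 0% in the betaTC3 lists. Over all windows, limma called 335 with a pseudocount of 0.1, 31 with the 4 alphaTC1 libraries alone and 163 without the trend, and DESeq2 called 10. Leaving out 1 library gave 0 to 6281 calls over all windows and 0 to 7 among the 482. The high end came without knockdown replicate 2, with 6038 lower (34.2%) and 243 higher (1.38%) of all windows and 7 lower (1.45%) and 0 higher of the 482, among them Gm14616 (adjusted p = 0.0378). With a single knockdown library the spread comes from the other groups. The median log2 change of the 482 was -0.35 to -0.21 when 1 library was left out, and 0.10 after centring, where it changed sign. The signs at Irx1 and Pou3f4 turned too, to 0.30 and 0.27 after centring, 0.30 and 0.27 with edgeR and 0.29 and 0.26 with DESeq2. They ran from -0.27 to 0.12 and from -0.29 to 0.077 when 1 alphaTC1 library was left out, with the positive values without knockdown replicate 1. The cause of these shifts was not tested. A replicate block over the 4 alphaTC1 libraries called 0 of all windows, where the same 4 libraries without the block gave 31, and 0 of the 482 with and without it. The median was -0.28 in both, which the balanced layout fixes in advance. The block also leaves less data for the spread, so neither result shows whether the replicate numbers pair the libraries. Without the 10 windows under a betaTC3 peak, an alternative chosen after seeing the data, 472 remained, with 40.5% within 1 kb and a median of -0.27. Depth limits the empty side: 37 reads in alphaTC1 and 12 in betaTC3 are the closest values the rule allowed.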
